A study of Homo sapiens with 4 samples.

Results

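The nuclear genes for the subunits of the 5 oxidative phosphorylation complexes were followed in HCT116 cells after siRNA against LINC00152. The members were chosen by symbol: NDUFA, NDUFB, NDUFC, NDUFS and NDUFV with a number (complex I), SDHA to SDHD (complex II), the UQCR symbols and CYC1 (complex III), COX4 to COX8 with a letter A to C (complex IV) and the ATP5 symbols (complex V). They came to 87 of 19970 gene symbols, 36 for complex I, 4 for complex II, 10 for complex III, 17 for complex IV, 16 for complex V and 4 others. NDUFA4 and NDUFA4L2 were counted with complex IV. The 4 others were the read-through genes ATP5J2-PTCD1 and NDUFC2-KCTD14 and the genes ATP5S and ATP5SL, whose products are not subunits. A read-through gene shares reads with the genes it spans, so the values of NDUFC2 and NDUFC2-KCTD14 are uncertain in how reads were divided.

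Oxidative phosphorylation takes place in the inner mitochondrial membrane. Complex I takes electrons from NADH and complex II takes them from succinate, and both hand them to ubiquinone. Complex III passes them from ubiquinol to cytochrome c and complex IV from cytochrome c to oxygen, while complexes I, III and IV pump protons. Complex V lets the protons return and makes ATP. Complexes I, III, IV and V join subunits coded in the nucleus with subunits coded in mitochondrial DNA, and complex II is coded in the nucleus alone.

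HCT116 cells are an epithelial line from a human colorectal carcinoma. The control cells received a non-targeting siRNA (si-NC) and the other cells siRNA against the long noncoding RNA LINC00152 (si-152), each at 100 nM for 36 h, with 2 independently plated replicates per group. No stable alteration was made in either group, and both passed through transfection. RNA was sequenced, and each of the 4 libraries has 1 value per gene symbol, read here as FPKM, a level scaled for transcript length and library size that can be compared between genes. LINC00152 was not analysed here, and so its knockdown was not checked.

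The libraries summed to between 424734 and 534277 FPKM, with 14586 to 14683 symbols above 0. The number of reads behind them is not known from FPKM. Of the epithelial markers, 6 of 7 were expressed (EPCAM, CDH1, KRT8, KRT18, KRT19 and CDX2) and VIL1 was near 0. Their summed level was 3030 and 3530 FPKM in si-NC against 2390 and 2970 in si-152. Of 8 markers of other cell types, 7 were under 1 FPKM in every library and PTPRC and COL1A2 were listed at 0, while the list summed to 7.49 to 8.54 FPKM, nearly all of it COL1A1. Their part in the differences was not tested.

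The subunit genes were among the more highly expressed genes of these cells. Of the 87 members, 37 had a mean above 100 FPKM, and the median level of the 79 members that passed the filter (at least 1 FPKM in at least 2 libraries) was 94.6 FPKM, against 9.88 FPKM for all 11219 genes that passed. NDUFB9, an accessory subunit of complex I, was listed at 670.2 and 743.9 FPKM in si-NC replicates 1 and 2 and at 519.2 and 712.7 FPKM in si-152 replicates 1 and 2. In the same order of libraries ATP5E, the epsilon subunit of ATP synthase, stood at 421.2, 747.2, 453.5 and 548.8 FPKM, and COX6A1, the form of subunit VIa found outside heart and muscle, at 509.0, 642.4, 429.4 and 592.4 FPKM. In these 3 genes the groups overlapped and replicate 2 was the higher library within each group. Median levels per complex were 183 FPKM for complex IV and 188 FPKM for complex V, and were lower for complexes I (78.9 FPKM), III (74.3 FPKM) and II (46.6 FPKM).

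**Figure D1:**
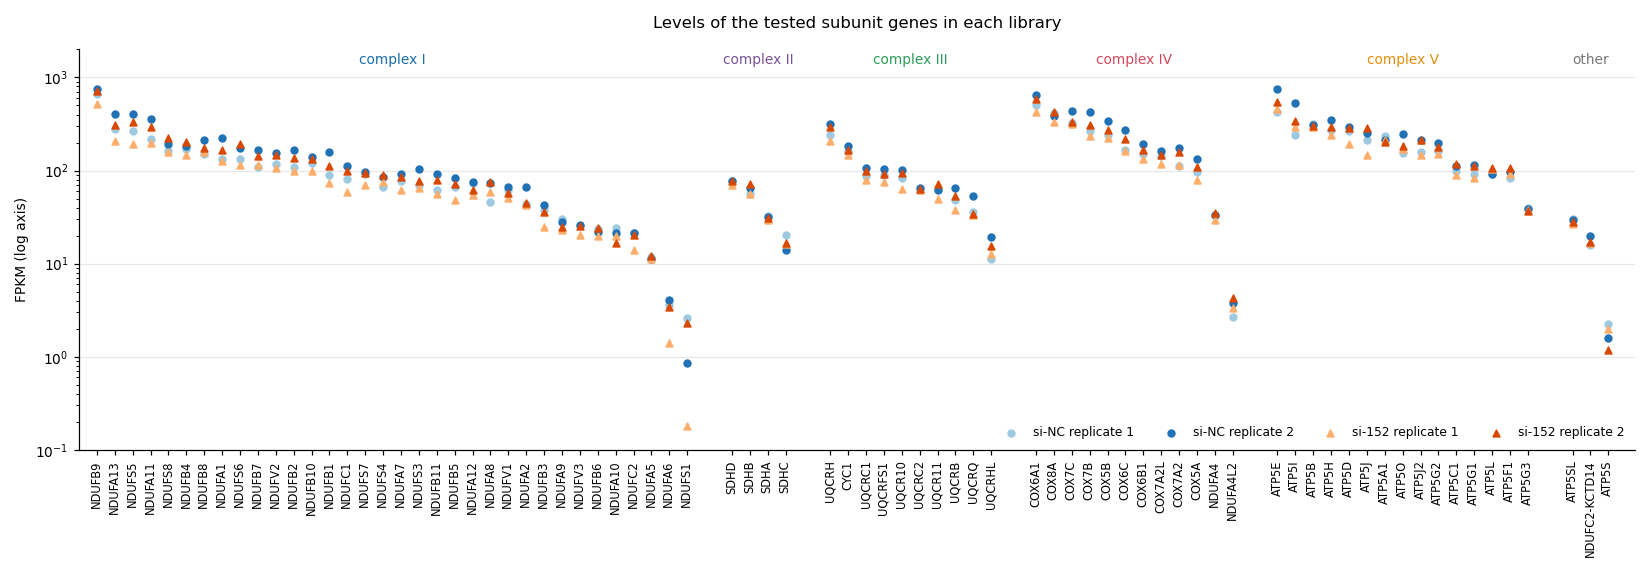
FPKM (log axis) of 78 tested members in each of the 4 libraries, by complex and in descending order of mean level. Blue circles are si-NC and orange triangles are si-152, and the dark symbols (replicate 2) stand above the pale ones of the same colour in 63 members for si-NC and 74 for si-152.

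The 8 members that did not pass the filter were mostly forms known from other tissues. COX6A2 and COX7A1, the heart and muscle forms of their subunits, COX7B2 and COX8C, which are known from testis, and NDUFA3 were listed at 0 in all 4 libraries. COX6B2, another testis form, lay between 0.7075 and 0.9731 FPKM. ATP5L2 reached 0.0956 FPKM in 1 library and ATP5J2-PTCD1 stayed near 0. NDUFA3 codes for a subunit present in complex I of all tissues, so its 0 is given only as the listed value.

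Where 2 or more genes can fill the same place in a complex, the shares of their summed FPKM were compared. COX6A1, COX7B and COX8A each held 100% of their pair, and COX6B1 held between 99.3% and 99.6%. COX7A2 and its relative COX7A2L, which takes part in joining complexes III and IV into supercomplexes, were of similar level: COX7A2 held 44.1% and 51.9% of the family in si-NC and 49.7% and 52.1% in si-152. NDUFA4L2, a gene known to be induced by hypoxia, held 7.46% and 10.0% beside NDUFA4 in si-NC and 10.2% and 11.0% in si-152. Its FPKM were 2.67 and 3.73 in si-NC and 3.37 and 4.32 in si-152, which overlap.

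ATP synthase subunit c is made from 3 genes that code for the same mature protein. ATP5G2 held between 54.6% and 56.8% of their summed FPKM, ATP5G1 between 30.3% and 34.2%, and ATP5G3 between 11.0% and 13.9%. UQCRHL, a near copy of the complex III hinge protein gene UQCRH, held between 4.46% and 5.75% of the pair, and because the copies are so alike the division of reads between them is uncertain.

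No member passed the test between si-152 and si-NC, limma's moderated test on log2(FPKM + 1). At an adjusted p under 0.05 the count was 0 of 79 (0.0178% of all genes tested), and the adjusted p was 1.0 for each. At an unadjusted p under 0.05 it was also 0, against 4.39% of all genes, 2.5% with lower levels in si-152 and 1.89% with higher levels. Other settings that kept the 4 libraries and used no block gave 0 or 1 such member. With the replicate number as a block 16 members were lower (8.11% of all genes) and 1 was higher (8.74%) at an unadjusted p under 0.05, and 0 had an adjusted p under 0.05 (0.669%). On this scale the fold changes of weakly expressed genes come out too small.

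The differences were small but mostly of 1 sign. A negative log2 fold change was found in 70 of 79 members (88.6%), against 45.8% of all tested genes. After quantile normalization it was found in 61 of 79, against 5314 of all 11219 tested genes. The members were of higher level than most tested genes, and the comparison was not matched for level. Without scaling the median log2 fold change was -0.17, or -11.1% in level, against 0.02 for all genes. The lowest value was -0.56, for NDUFA6. The summed FPKM of all members was 10119 and 13197 in si-NC and 9029 and 11670 in si-152, so the groups overlapped, and the share of all FPKM was 2.19% and 2.47% in si-NC and 2.13% and 2.30% in si-152. Without si-152 replicate 1 the median of the members was 0.00, with 38 of 79 below 0. Without si-NC replicate 2 it was -0.02, with 44 of 79 below 0. It was -0.31 without si-NC replicate 1 and -0.32 without si-152 replicate 2. Replicate 2 was above replicate 1 in most members of both groups, so a fit without 1 library also holds this gap. In the same-numbered pairs the medians were -0.16 and -0.12. Fewer transcripts per cell in all cells and a change in only some of the cells cannot be told apart in bulk RNA.

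**Figure D2:**
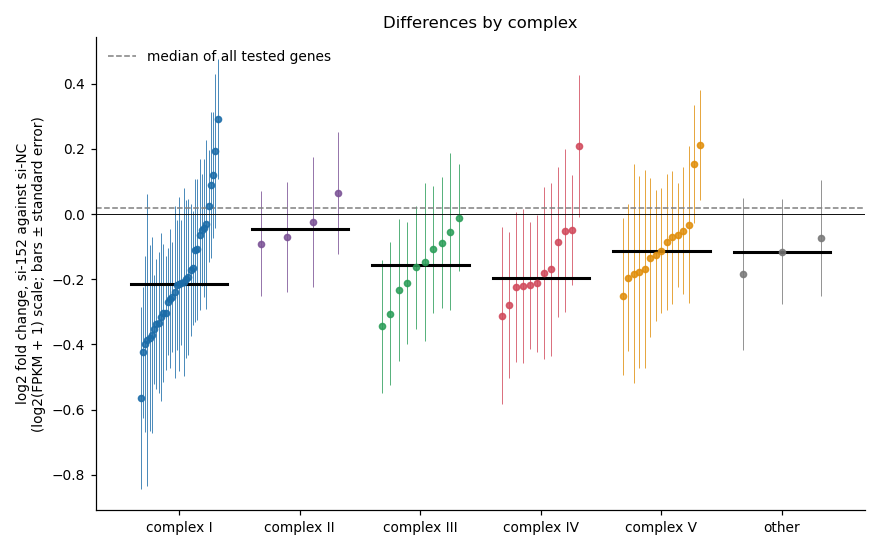
Log2 fold change, si-152 against si-NC, of each tested member (points, with bars of 1 standard error from limma, n = 2 libraries per group) by complex. Thick black lines are the medians, -0.21 for complex I, -0.05 for complex II, -0.16 for complex III, -0.20 for complex IV and -0.11 for complex V, and the dashed line is the median of all tested genes (0.02).

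Complex I held the members with the largest negative values. Of its 35 tested members 30 were below 0, with a median of -0.21 (28 of 35 and -0.17 after quantile normalization). The subunits of the N module, which binds and oxidises NADH, had a median of -0.24 (9 of 10 below 0), and those of the P module, the proton-pumping arm in the membrane, had a median of -0.21 (18 of 19 below 0). In the Q module, which passes the electrons to ubiquinone, 3 of 6 were below 0 (4 of 6 after quantile normalization) and the median was -0.09. The median of complex I was -0.39 without si-152 replicate 2, -0.07 without si-NC replicate 2 and 0.01 without si-152 replicate 1. Differences between modules or complexes were not tested.

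NDUFA6, an accessory subunit at the N module, was of low level, with 3.61 and 4.08 FPKM in si-NC against 1.42 and 3.43 in si-152. Both si-152 libraries lay below both si-NC libraries, but si-152 replicate 2 was nearer to si-NC than to its own replicate. The log2 fold change was -0.56 with a 95% confidence interval of -1.19 to 0.06 (limma, adjusted p = 1.0). NDUFB3, an accessory subunit of the membrane arm, had 38.1 and 42.4 FPKM in si-NC against 24.7 and 35.7 in si-152, without overlap. Its log2 fold change was -0.42 (95% confidence interval -0.87 to 0.03, limma adjusted p = 1.0). Without si-152 replicate 1 the values were -0.13 for NDUFA6 and -0.17 for NDUFB3, and without si-152 replicate 2 they were -1.001 and -0.68.

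NDUFA13, also known as GRIM-19 and needed for complex I to assemble, was among the higher genes, with 277.0 and 407.9 FPKM in si-NC against 210.1 and 309.3 in si-152. The groups overlapped, since si-152 replicate 2 exceeded si-NC replicate 1, and the log2 fold change was -0.40. It was -0.12 without si-NC replicate 2 or without si-152 replicate 1 and -0.68 without either of the others. Replicate 2 of NDUFA13 was the higher library in both groups, and its difference was -0.397 in the first pair and -0.398 in the second. NDUFA12, an accessory subunit near the NADH end and named here after its values were seen, had the smallest p of the set in limma, although its adjusted p was 1.0. Its levels of 73.2 and 75.8 FPKM in si-NC against 54.9 and 61.4 in si-152 did not overlap, and the log2 fold change was -0.35.

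Of the tested members of complex I 5 had values above 0. NDUFA8, an accessory subunit that is imported into the space between the membranes, gave 46.3 and 74.4 FPKM in si-NC against 59.4 and 76.2 in si-152, which overlap, and its log2 fold change was 0.19. Of the 7 core subunits coded in the nucleus 5 were below 0, with a median of -0.21.

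NDUFS1, the largest core subunit and one that carries iron-sulfur clusters, was singled out after its values were seen. It was listed at only 2.58 and 0.862 FPKM in si-NC against 0.182 and 2.31 in si-152. Other core subunits such as NDUFV1 and NDUFS8 had mean levels of 59.43 and 182.6 FPKM. The values of NDUFS1 are therefore given only as listed, and why they were so low was not tested. In si-NC replicate 1 was the higher library and in si-152 replicate 2 was, and the difference was -1.60 in the first pair and 0.83 in the second on the log2 scale. The log2 fold change was -0.39 ± 0.45 (SE, limma, n = 2 per group).

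The median of complex II was -0.05, and it ran from -0.11 without si-152 replicate 2 to 0.01 without si-152 replicate 1. SDHA, the subunit that binds FAD and succinate, had 32.7 and 31.6 FPKM in si-NC against 29.5 and 30.7 in si-152, with a log2 fold change of -0.09 and a 95% confidence interval of -0.45 to 0.27. These groups did not overlap, by a small margin. SDHB, the iron-sulfur subunit, had 55.8 and 65.1 FPKM in si-NC against 55.7 and 71.4 in si-152, which overlap, and a log2 fold change of 0.07. The membrane anchors SDHC and SDHD gave -0.02 and -0.07.

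All 10 members of complex III had values below 0, with a median of -0.16, although none passed the test and UQCRC2 was at 0.03 after quantile normalization. The median was -0.35 without si-152 replicate 2, -0.07 without si-NC replicate 2 and 0.02 without si-152 replicate 1. UQCRQ, a small subunit of complex III, had 35.5 and 52.7 FPKM in si-NC against 33.7 and 34.0 in si-152, and the groups did not overlap because si-NC replicate 1 was just above both si-152 libraries. The log2 fold change was -0.34 (limma, adjusted p = 1.0), and the difference was -0.07 in the first pair and -0.62 in the second. Without si-NC replicate 2 the value of UQCRQ was -0.065 and without si-NC replicate 1 it was -0.62. UQCRB, a ubiquinone-binding subunit, gave 48.1 and 64.9 FPKM in si-NC against 37.7 and 53.7 in si-152, which overlap, with a log2 fold change of -0.31 (-0.0558 without si-152 replicate 1). The 2 highest genes of the complex, UQCRH and CYC1 (cytochrome c1), gave -0.15 and -0.16. UQCRC2, a core protein of the complex, and UQCRHL were nearest to 0, at -0.01 and -0.05.

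In complex IV 11 of 12 tested members were below 0 (9 of 12 after quantile normalization, which put COX7A2 and COX8A above 0), and no member had both si-152 libraries below both si-NC libraries. COX7B, a subunit needed for complex IV to assemble, was listed at 265.7 and 427.5 FPKM in si-NC against 235.7 and 312.2 in si-152, which overlap, and its log2 fold change was -0.31 (95% confidence interval -0.92 to 0.30). COX5A, a subunit of the matrix side, had 95.7 and 131.5 FPKM in si-NC against 78.7 and 108.2 in si-152, which also overlap, with a log2 fold change of -0.28. COX8A, second in mean level among the tested members of the complex, gave -0.09, and NDUFA4 gave -0.05. The exception was NDUFA4L2, at 0.21. In the same-numbered pairs the differences were -0.17 and -0.45 for COX7B and -0.28 and -0.28 for COX5A. Without si-NC replicate 2 the values were 0.0298 for COX7B and -0.0527 for COX5A, and the median of the complex, -0.20 with all libraries, was -0.0129. Without si-NC replicate 1 that median was -0.38, and without si-152 replicate 1 it was -0.0058.

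Complex V had 13 of 15 tested members below 0 and a median of -0.11, and after quantile normalization 9 of 15 and -0.03. ATP5D, the delta subunit of the central stalk, had 263.8 and 296.0 FPKM in si-NC against 190.7 and 288.0 in si-152, which overlap because si-152 replicate 2 was within the si-NC range, and a log2 fold change of -0.25. ATP5H, subunit d of the peripheral stalk, followed at -0.19. ATP5I, subunit e of the membrane part, had the widest gap between control libraries, 241.9 and 533.7 FPKM, against 294.2 and 340.4 FPKM in si-152, and its pair differences were 0.28 and -0.65. The value of ATP5D was 0.0433 without si-152 replicate 1 and -0.55 without si-152 replicate 2. The median of the complex ran from -0.25 without si-152 replicate 2 to 0.0352 without si-NC replicate 2.

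The exceptions in complex V were ATP5L and ATP5F1. ATP5L, subunit g of the membrane part, had 91.4 and 90.8 FPKM in si-NC against 103.7 and 107.5 in si-152, so the groups did not overlap, and its log2 fold change was 0.21 (95% confidence interval -0.17 to 0.59, limma adjusted p = 1.0). ATP5F1, subunit b of the peripheral stalk, gave 0.15. The F1 head genes ATP5A1 and ATP5B, which form the catalytic ring and were named after their values were seen, had values of -0.11 and -0.07, and in both genes the si-152 libraries lay below the si-NC libraries.

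Over all complexes, both si-152 libraries lay below both si-NC libraries in 13 of 79 members, against 13.9% of all tested genes, and above them in 2 of 79, against 16.5%. By name, which rests on this count alone, the 13 were NDUFA6, NDUFA9, NDUFA10, NDUFA12, NDUFB3, NDUFC2, NDUFV1, SDHA, UQCRQ, ATP5A1, ATP5B, ATP5G3 and ATP5SL, and ATP5L was among the 2. The count below was thus close to that of genes in general, and the count above was under it.

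The same-numbered libraries were also set side by side, as 2 separate differences. In the first pair 64 of 79 members were lower in si-152 (55.2% of all genes) and in the second 58 of 79 (36.5% of all genes). In both pairs 49 members (62.0%) were lower (37 after quantile normalization), against 27.3% of all genes, and 6 were higher, against 35.7%. The medians of the members were -0.16 and -0.12, and those of all genes were -0.03 and 0.07. By complex, 24 of 35 members of complex I, 1 of 4 of complex II, 7 of 10 of complex III, 8 of 12 of complex IV and 7 of 15 of complex V were lower in both.

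**Figure D3:**
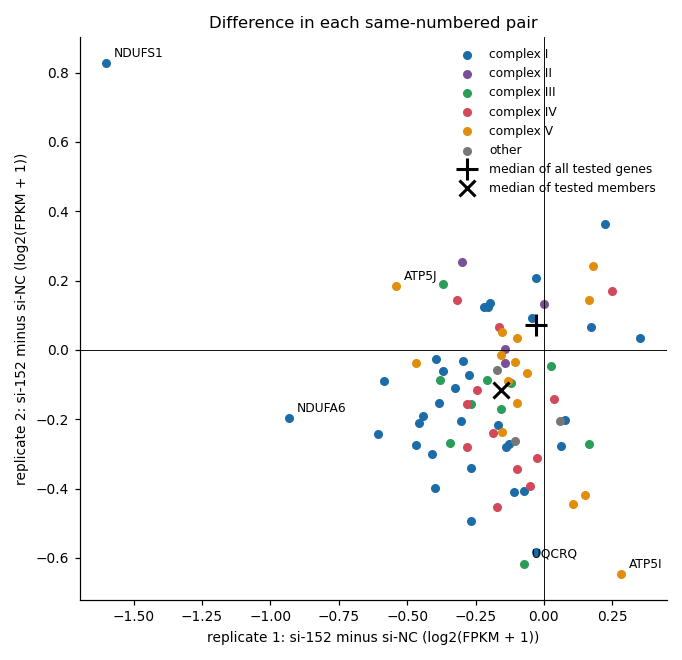
Difference between si-152 and si-NC (log2(FPKM + 1)) in the replicate 1 libraries (x axis) and in the replicate 2 libraries (y axis) for the 79 tested members, coloured by complex. The lower left part holds the 49 members lower in both pairs, the cross at -0.16 and -0.12 is the median of all 79 members, the plus sign at -0.03 and 0.07 is that of all tested genes, and NDUFS1 and NDUFA6 lie far to the left.

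The difference between replicates was mostly larger than the difference between groups. The group difference is taken between means of 2 libraries, which vary less than single libraries, so the 2 sizes are not on equal terms. In 64 of 79 members the mean size of the 2 replicate gaps exceeded the size of the group difference, as it did in 7807 of 11219 genes. Replicate 2 was above replicate 1 in 64 members in si-NC and in 75 in si-152. The median gap of the members was 0.27 in si-NC and 0.32 in si-152 on the log2 scale, while over all genes it was -0.11 and -0.01. The widest gaps were those of ATP5I in si-NC (1.14) and NDUFS1 in si-152 (1.48). Members with a small group difference and a small gap included ATP5G3, with 39.7 and 38.5 FPKM in si-NC against 37.9 and 36.7 in si-152.

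**Figure D4:**
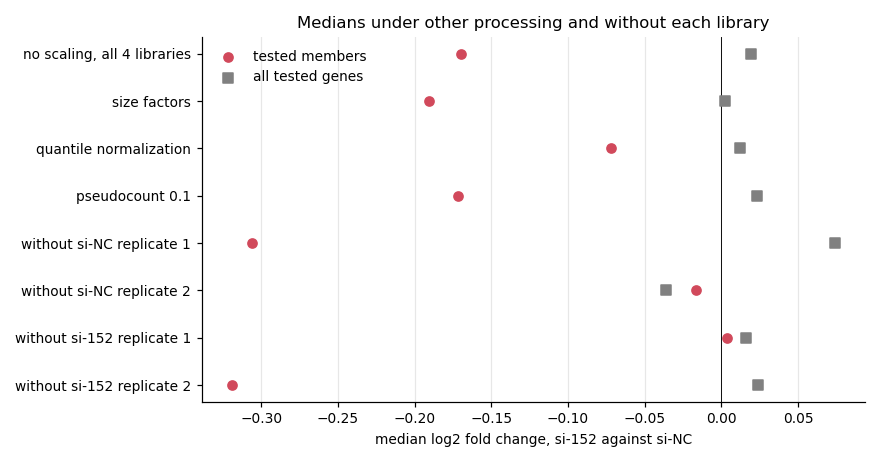
Median log2 fold change, si-152 against si-NC, of the tested members (red circles) and of all tested genes (grey squares) without scaling, under other scalings and pseudocounts, and without each library in turn. The median of the members lies at -0.17 with all libraries, at -0.07 after quantile normalization, at -0.32 without si-152 replicate 2 and at 0.00 without si-152 replicate 1.

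Subunit genes are short, and the differences between libraries varied with transcript length. The median transcript length was 715.5 bases for the tested members and 1771.5 bases for all tested genes. Under 1000 bases the median log2 fold change was -0.18 for 59 members and -0.03 for the other genes. From 1000 to 2000 bases it was -0.14 for 12 members and -0.0023 for the others, and from 2000 bases it was -0.13 for 8 members and 0.06 for the others. Along the same classes the median gap between si-NC replicates (replicate 2 minus replicate 1) was 0.30, 0.18 and 0.11 for members and 0.02, -0.02 and -0.23 for other genes. The part of transcript length in the differences was not tested.

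**Figure D5:**
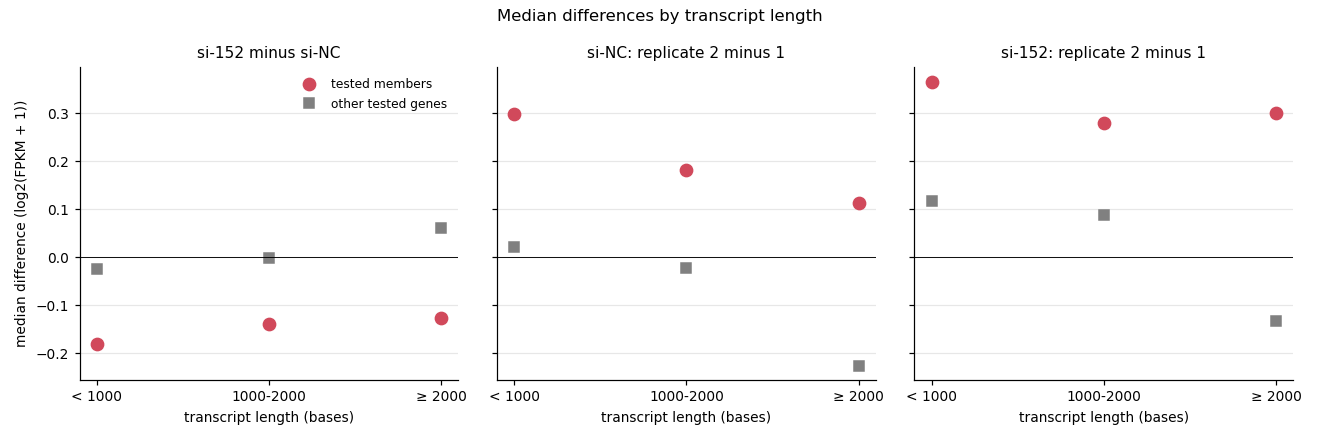
Median differences on the log2(FPKM + 1) scale by transcript length class (under 1000, 1000 to 2000, and 2000 bases and over) for the tested members (red circles, 59, 12 and 8 genes) and the other tested genes (grey squares), between groups (left) and between replicates of si-NC (middle) and si-152 (right). Members lie below the other genes in the left panel, at -0.18, -0.14 and -0.13, and above them in the others.

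The genes that build or serve the complexes were counted in the same way. Subunit genes that the symbols of the rule miss, NDUFAB1, COX4I1, USMG5 and C14orf2, were all below 0, with a median of -0.22. Of 50 assembly factors of the 5 complexes 26 were below 0 and 24 above, with a median of -0.0034, and 1 of 50 had an unadjusted p under 0.05, against 4.39% of all genes. This was COX16, an assembly factor of complex IV, with 17.7 and 22.9 FPKM in si-NC against 12.3 and 15.2 in si-152 and a log2 fold change of -0.52 (limma, adjusted p = 1.0). NUBPL, which delivers iron-sulfur clusters to complex I and was named after its values were seen, gave 0.43.

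Among 14 genes for electron carriers, ubiquinone synthesis and the exchange of nucleotides and phosphate, 12 were below 0, with a median of -0.15, and 1 of 14 had an unadjusted p under 0.05, against 4.39% of all genes. SLC25A5, which codes for an ADP/ATP carrier of the inner membrane, had 157.7 and 195.8 FPKM in si-NC against 114.0 and 116.8 in si-152. The groups did not overlap, and the log2 fold change was -0.60 (95% confidence interval -1.03 to -0.18, limma adjusted p = 0.878).

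Of 14 citrate cycle enzymes 9 were below 0 and 5 above, with a median of -0.09. At an unadjusted p under 0.05, 2 of 14 were higher in si-152, against 1.89% of all genes, and 0 of 14 were lower, against 2.5%. Of the former, IDH3A, a subunit of the NAD-dependent isocitrate dehydrogenase, had 19.5 and 17.6 FPKM in si-NC against 24.1 and 27.7 in si-152 (log2 fold change 0.46, limma adjusted p = 1.0). Its groups did not overlap.

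Of 11 tested regulators of mitochondrial biogenesis 7 were above 0 (6 with size factors or after quantile normalization), with a median of 0.14, and none had an unadjusted p under 0.05. The transcription factors whose letters were searched in the promoters had log2 fold changes of 0.14 (NRF1), -0.03 (GABPA) and 0.23 (YY1). PPARGC1A, a coactivator of these factors, was listed at 0 in all libraries. The 13 subunits coded in mitochondrial DNA were not analysed here.

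The start sites of subunit genes are known as places where NRF1, ETS factors such as GABPA, and YY1 bind, and their letters were searched on both strands from 250 bases before to 50 bases after the annotated start (RefSeq, GRCh38.p14). The NRF1 letters were those in capitals for NDUFA12 here, with any base at the sixth place. They were CCGGAAG for ETS factors and AAGATGGCG for YY1, and the last pair can overlap by the letters AAG. Of the 87 members 68 had a promoter in the table. NRF1 letters were found in 16 of them (23.5%, against 6.98% of 27305 genes), ETS letters in 19 (27.9%, against 12.2%) and YY1 letters in 9 (13.2%, against 2.14%). The 27305 genes are all those with a promoter in the reference, expressed in these cells or not. The shares are therefore not matched for level. Windows of 30 bases, on the strand of the gene and with the motif in capitals, follow for the members named above with the smallest p (NDUFA12), among the lowest values (NDUFA6, NDUFA13, UQCRQ), without overlap (NDUFA9, SDHA) or with a value above 0 (NDUFA8, ATP5L), where such letters were found.
NDUFA12, NRF1, chr12:95003794-95003823, minus strand: acctagctctGCGCACGCGCagagccacca
NDUFA9, NRF1, chr12:4649024-4649053, plus strand: ttcttggttaGCGCTTGCGCagacaggcga
NDUFA8, NRF1, chr9:122159764-122159793, minus strand: gttgccggatGCGCATGCGCaggcgccgtg
SDHA, NRF1, chr5:218291-218320, plus strand: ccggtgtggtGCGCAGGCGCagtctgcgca
NDUFA13, ETS, chr19:19516204-19516233, plus strand: tccgcccgggaCCGGAAGtgtgggatactg
UQCRQ, ETS, chr5:132866577-132866606, plus strand: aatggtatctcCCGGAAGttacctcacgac
ATP5L, ETS, chr11:118401596-118401625, plus strand: tgcagcgggtcCTTCCGGcgggtgacattc
NDUFA6, YY1, chr22:42090728-42090757, minus strand: atgctttggcAAGATGGCGgggagcggcgt
NDUFA9, YY1, chr12:4649114-4649143, plus strand: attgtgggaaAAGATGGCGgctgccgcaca

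In the NDUFA9 and ATP5L windows with GCGCTTGCGC and CTTCCGG the motif reads on the other strand. SDHA has 4 matches to the NRF1 letters in its promoter window and NDUFA9 has both NRF1 and YY1 letters. The tested members with NRF1 letters had a median log2 fold change of -0.12 (14 genes), those with ETS letters -0.18 (19 genes), those with YY1 letters -0.18 (9 genes) and those with a promoter but none of the 3 motifs -0.17 (28 genes). Both signs occurred among members with the same letters, with NDUFA12 and NDUFA8 sharing the NRF1 letters at -0.35 and 0.19 and UQCRQ and ATP5L sharing the ETS letters at -0.34 and 0.21.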

How the data were processed

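HCT116 cells were transfected with si-NC or si-152 and RNA was sequenced from 4 libraries, 2 per group. The authors deposited 1 table per library with a value per gene symbol. No source used here names the unit, and the deposited values were taken as FPKM from their decimals, zeros and unequal sums. The submitters' processing notes name Trimmomatic, TopHat, HISAT2, HTSeq, DESeq and GRCh38 without role or order. Of 19974 rows, 4 with a repeated symbol were left out (28 symbols read as dates).

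log2(FPKM + 1) was tested with limma 3.58.1 (R 4.3.3, mean-variance trend, Benjamini-Hochberg) in 11219 genes (1 FPKM or more in 2 or more libraries), without scaling or block. The script was tested on simulated data. The ratios of low values between libraries had no clear mode (0.95, 0.95 and 0.9 against si-NC replicate 1, each shared by 17 to 31 genes), so depth was not recovered. FPKM carry no counting error.

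The members and gene lists were chosen with earlier results of these data known. Named genes were those with an unadjusted p under 0.05, the 2 largest increases, 2 largest decreases and 2 highest levels in each complex, and isoform groups. The values of 1 member and of 1 gene of another list are not reported here, although both are in the counts. Transcript lengths are medians per gene (GENCODE v29), known for 99.2% of tested genes. Alternatives covered the pseudocount, filter, scaling, block, trend and each library left out.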

Additional observations from a re-analysis of the deposited data

How the results depend on the processing

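The median log2 fold change of the members stayed below 0 under every alternative that kept the 4 libraries, from -0.19 with size factors to -0.07 after quantile normalization, and ranged from -0.32 to 0.00 with 1 library left out (the lone library is then assumed to vary like the other group). The count of members lower at an unadjusted p under 0.05 was 1 when genes above 0 in at least 1 library were kept (2.76% of all genes) and 1 after quantile normalization (3.4%), NDUFA12 in both, and 0 to 13 with 1 library left out. It was 4 without si-NC replicate 1 (2.55% of all genes), 1 without si-NC replicate 2 (2.75%, NDUFS1), 0 without si-152 replicate 1 (1.15%) and 13 without si-152 replicate 2 (4.6%). In the last, si-152 replicate 1 alone stood for its group, and it listed NDUFS1 at 0.182 FPKM, against 2.31 in the library left out. The log2 fold change of NDUFS1 was then -1.13, which rests on that 1 low value. The count higher was 0 to 1 (1 without si-152 replicate 1, 1.61% of all genes). The labels number the replicates in both groups alike but do not say that a number marks a shared culture. The deviations of same-numbered libraries correlated at 0.52 over 11219 genes, as a hint from the data only. With the replicate block 16 members were lower (8.11% of all genes) and 1 was higher (8.74%) at an unadjusted p under 0.05, and 0 had an adjusted p under 0.05 (75 genes, 0.669%). Why these counts differ was not tested.

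Among the named members, 16 of 34 kept their sign under all 11 settings. After quantile normalization COX7A2 (0.0384), COX8A (0.0346) and UQCRC2 (0.0264) changed sign. With 1 library left out, the values that changed sign ran from -0.55 to 0.0433 for ATP5D, -0.58 to 0.24 for ATP5E, -0.31 to 0.14 for ATP5G1, -0.27 to 0.0209 for ATP5G2, -0.75 to 0.39 for ATP5I, -0.41 to 0.0509 for COX6A1, -0.37 to 0.26 for COX7A2, -0.65 to 0.0298 for COX7B, -0.27 to 0.0965 for COX8A, -0.17 to 0.072 for NDUFA4, -0.14 to 0.53 for NDUFA8, -0.44 to 0.0134 for NDUFB9, -0.11 to 0.24 for SDHB, -0.27 to 0.22 for SDHC, -0.16 to 0.0159 for SDHD, -0.062 to 0.0406 for UQCRC2, -0.40 to 0.10 for UQCRH and -0.41 to 0.30 for UQCRHL. Without the read-through genes, ATP5S, ATP5SL and UQCRHL, a choice made after seeing the data, the median was -0.17.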
